A study of Homo sapiens with 24 samples.

Results

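The comparison set the total RNA of a G3BP2-miniSOG line against that of a miniSOG-DDX6 line. It used 4 of the 24 libraries of the series, chosen by their labels: 2 input libraries of each line, both under arsenite. Both lines are HEK293T, a human embryonic kidney cell line, and stably express 1 protein fused to miniSOG, a small protein that makes singlet oxygen in blue light. The series also holds a TIA1-miniSOG line, and for each line captures of RNA labelled near the fusion protein and captures made without the probe.

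Both groups were stressed with sodium arsenite at 0.5 mM, given for 40 min before the probe and kept on with it. The probe was 10 mM propargylamine, present for 5 min before 15 min of blue light at 24 mW/cm2. The labels give the arsenite treatment as 1 hr in all. RNA was extracted and joined to biotin by click chemistry, and the inputs are the part set aside before streptavidin. The unstressed DDX6 inputs, used as a reference level, had the same probe and light without arsenite. Each line carries 1 fusion, so an effect of the fusion protein and a difference between the lines themselves cannot be told apart. The labels do not say whether a line is 1 clone or a pool, which promoter drives the fusion, or whether the 2 replicates are separate cultures. The p-values therefore rest on the spread between replicate libraries, which may be technical. That spread was estimated over all groups of the series, captures included, and not from the compared inputs alone.

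G3BP2 is an RNA-binding scaffold of stress granules, the condensates of untranslated mRNA that form when translation initiation stops. DDX6 is a helicase of processing bodies (P-bodies) that takes part in translational repression and mRNA decay. Arsenite activates a kinase that phosphorylates the initiation factor eIF2 alpha. That phosphorylation halts most initiation and favours translation of ATF4, a transcription factor whose targets include genes of amino acid supply and redox balance.

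The 4 libraries were of like depth. The G3BP2 inputs held 3265203 and 2837962 counts and the DDX6 inputs 3270373 and 3825961. Mitochondrial transcripts took 24.4% and 23.7% of the counts in the G3BP2 inputs and 29.7% and 29.6% in the DDX6 inputs. Replicates of a line correlated across tested genes at r = 0.969 (G3BP2) and 0.963 (DDX6), and differed by more than counting error, so neither pair holds duplicates of 1 library. All 9 HEK293T markers were detected, among them NEFL, NEFM, VIM and SOX4, with summed levels of 521 and 563 CPM in the G3BP2 inputs and 587 and 503 CPM in the DDX6 inputs. None of the 9 passed the test. Of 26 markers of blood, liver, connective tissue, endothelium, epithelium and glia, PTPRC, CD3E, LYZ, AFP, CDH5, KRT5 and KRT14 were at 0 in all 8 inputs of the series. The summed level of these 26 was 38.1 and 38.0 CPM in the G3BP2 inputs and 36.6 and 29.2 CPM in the DDX6 inputs, most of it COL1A1. Levels are CPM (library-scaled counts after TMM, the trimmed mean of M values), and fold changes are log2 values of the G3BP2 line over the DDX6 line, ± the model's SE.

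The fusion genes were checked first, since a fusion's own reads count toward its gene. DDX6 stood at 138 and 146 CPM in the G3BP2 inputs and at 1124 and 1100.5 CPM in the DDX6 inputs. In the TIA1 line it was at 176 and 181 CPM and in the unstressed DDX6 inputs at 1160.0 and 1109 CPM, so all 4 libraries of the DDX6 line were high and the 4 others low. The fold change was −2.97 ± 0.20 (adjusted p = 1.80e-11, two-sided quasi-likelihood test of edgeR, Benjamini-Hochberg adjusted over all genes). G3BP2 stood at 468 and 444 CPM in its own line, at 157 and 215 CPM in the DDX6 line and at 162 and 170.0 CPM in the TIA1 line. Its fold change was 1.29 ± 0.18 (adjusted p = 4.92e-05). Both genes matched the labels. Counts per gene do not separate the fusion transcript from the cell's own, so the level of the endogenous gene in these lines was not measured. No relative of the baits passed the test: G3BP1 stood at 239 ± 10.0 CPM (SD, n = 2) in the G3BP2 line and 286 ± 86.6 CPM in the DDX6 line, TIAL1 at 114 ± 2.31 and 106 ± 17.7 CPM, and DDX3X at 418 ± 30.0 and 514 ± 85.9 CPM. TIA1 itself, the bait of the third line, stood at 56.7 and 64.9 CPM in the G3BP2 line and 55.4 and 64.0 CPM in the DDX6 line.

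Across 14360 tested genes, 113 passed an adjusted p of 0.05, which is 0.787% of the genes tested. Of these, 42 were higher in the G3BP2 line (0.292%) and 71 lower (0.494%), and 72 differed at least 2-fold. Protein-coding genes made up 102 of the 113, and their share of all tested genes was not worked out. At an unadjusted p under 0.05 there were 1572 genes, and in 5921 genes (41.2%) both libraries of a line lay beyond both of the other, so that lack of overlap alone marks no gene out. The count depended on single libraries: it was 36 without G3BP2 input replicate 1, 42 without G3BP2 input replicate 2 and 51 without DDX6 input replicate 2. Scaling by total counts instead of TMM shifted the median of all genes up by 0.133 and gave 49 higher and 26 lower genes, so directions are read relative to the median of all genes. With total counts 46 of the 113 calls were lost, 45 of them of lower genes, and none changed sign. Those named here were RAP2C-AS1, LINC00470, EMX1, FLT1, TRIB1, AEN, ZMAT3, SNHG3, LAMC1, LAMA1, MT-ND5, DCAKD, LRPPRC, TOMM70, KIF5C, PGAP1, MTOR, FIRRE and ENSG00000279184.

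**Figure D1:**
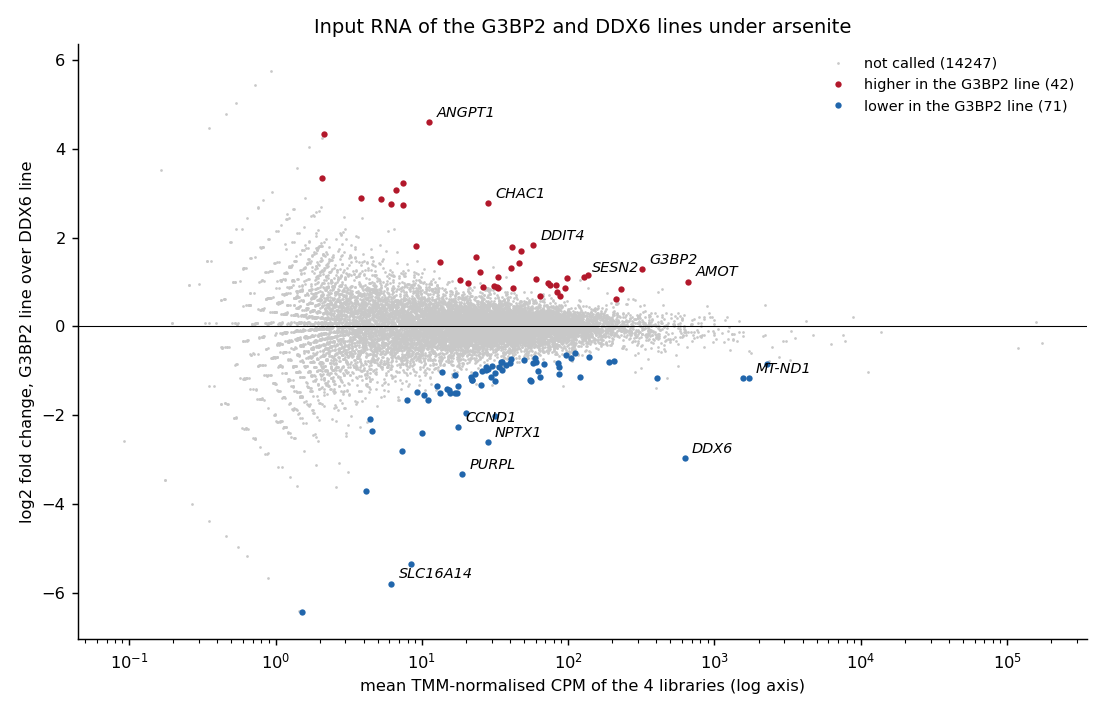
Fold change of each of the 14360 tested genes (vertical axis, log2, G3BP2 line over DDX6 line) against its mean level in the 4 inputs (horizontal axis, CPM, log scale). Red points mark the 42 genes called higher in the G3BP2 line, blue points the 71 called lower, and grey points the rest, and DDX6 and G3BP2 stand out at high levels.

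Of the 113 called genes, 19 stayed past the threshold whichever of the 4 libraries was left out. DDX6, G3BP2, ANGPT1, CHAC1, EYA1, FAM84B, HORMAD1 and SESN2 were among them, as were NPTX1, LRP2, CCND1, NELL2, TENM1 and SLC16A14. A further 36 genes lost the call under each of the 4 omissions. Genes given as called in all omissions belong to the 19.

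Of the called genes, the one with the largest fitted fold change toward the G3BP2 line was near 0 in the DDX6 line. ANGPT1, a secreted ligand of the TIE2 receptor of blood vessels, stood at 25.2 and 18.2 CPM in the G3BP2 inputs and at 0 and 1.64 CPM in the DDX6 inputs. Its fitted fold change was 4.60 ± 0.52 (adjusted p = 2.86e-06). The TIA1 inputs, at 0 and 0.499 CPM, were as low as those of the DDX6 line, so the G3BP2 line alone was high among these inputs.

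EYA1, a phosphatase and transcriptional coactivator of kidney and ear development, stood at 61.0 and 67.4 CPM in the G3BP2 inputs. In the DDX6 inputs it was at 15.5 and 21.0 CPM, a fold change of 1.80 ± 0.23 (adjusted p = 1.14e-05). The TIA1 inputs (26.2 and 18.4 CPM) and the unstressed DDX6 inputs (13.8 and 19.3 CPM) lay near the DDX6 line. FAM84B (1.71 ± 0.24) and HORMAD1, a protein of the meiotic chromosome axis (2.74 ± 0.47), were also called in all omissions. At high levels, AMOT, a junction protein that binds YAP, stood at 896 and 871 CPM against 454 and 426 CPM, with a fold change of 1.0 ± 0.18 (adjusted p = 0.00150). SLIT2, a secreted guidance ligand of ROBO receptors, stood at 279 and 311 CPM against 162 and 165 CPM (0.85 ± 0.16, adjusted p = 0.00256). Neither gene's libraries overlapped between the lines. AMOT lost the call without 1 of the 4 libraries and SLIT2 without 2 of them.

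Some calls in this direction rested on very few reads or on counts that cannot be assigned with certainty. SHROOM2, a regulator of cell shape, had 23 reads in the 2 G3BP2 inputs and 1 read in the 2 DDX6 inputs, a depth-scaled ratio of 24.3 (95% interval 3.95 to 1003, counting error only). RAP2C-AS1 had 21 reads against 2, a ratio of 11.1 (2.72 to 97.8). It is an antisense gene, and the library kit keeps no strand, so its reads cannot be told from those of its partner. EIF3FP1, a pseudogene of the initiation factor gene EIF3F, stood at 11.3 and 10.3 CPM against 1.48 and 1.64 CPM. It lies within AP003900.1 on the opposite strand of chromosome 21, and AP003900.1 was also called (3.23 ± 0.53), so their reads may be shared. EIF3F itself stood at 109 ± 4.12 against 157 ± 4.84 CPM and did not pass the test (adjusted p = 0.247). PHACTR3 (2.90 ± 0.61), ZNF700 (2.87 ± 0.65) and SYNM, an intermediate filament protein (1.81 ± 0.40), passed the test and lost the call without most single libraries.

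**Figure D2:**
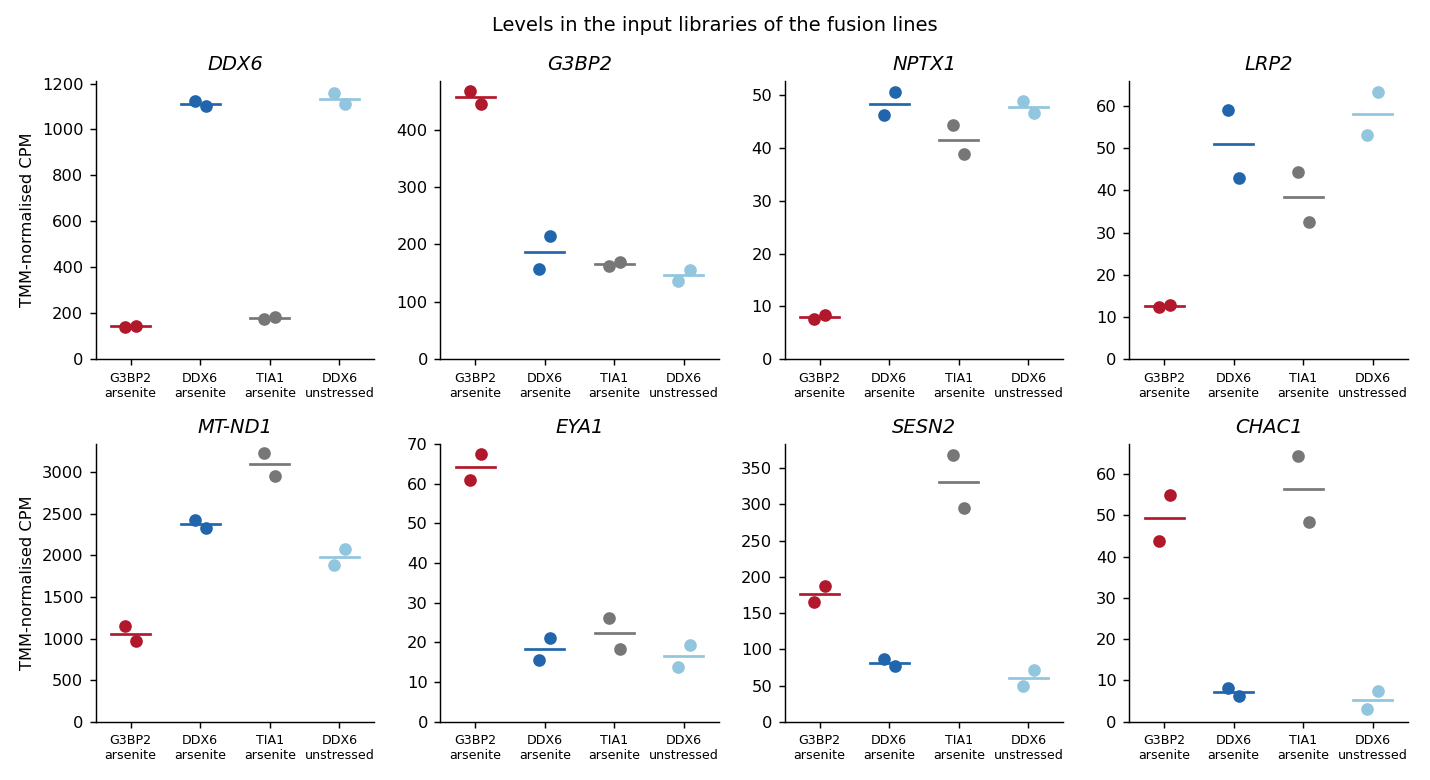
Level of 8 genes (CPM, axes from 0) in the 8 input libraries, with each point 1 library and each bar the mean of 2. DDX6 and G3BP2 are high in their own lines, NPTX1, LRP2 and MT-ND1 are low and EYA1 high in the G3BP2 line alone, and SESN2 and CHAC1 are low in the DDX6 line with and without arsenite.

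Among the gene lists looked at, that of ATF4 and its targets had the most calls toward the G3BP2 line. Of 32 tested genes on a list of ATF4 and its targets, 5 were called higher (15.6%, against 0.292% of all tested genes) and none lower. Of the 32, 26 lay above 0, with a median of 0.32 against 0.0063 for all tested genes. This list, like the other gene lists, was chosen with earlier results of these data known. The shares are therefore descriptions and no test. The 5 were CHAC1, SESN2, DDIT4, STC2 and GARS. CHAC1, an enzyme that breaks down glutathione, stood at 43.8 and 55.0 CPM in the G3BP2 inputs and 8.13 and 6.24 CPM in the DDX6 inputs. The fold change was 2.78 ± 0.41 (adjusted p = 1.52e-04), and the libraries did not overlap. The TIA1 inputs, at 64.3 and 48.4 CPM, lay with the G3BP2 line, and the unstressed DDX6 inputs, at 3.11 and 7.40 CPM, lay with the stressed DDX6 inputs. In the DDX6 line the difference between arsenite and no arsenite was 0.47 (adjusted p = 0.708), in a contrast that called 1.15% of all tested genes.

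SESN2, a leucine-binding protein that restrains mTORC1, stood at 165 and 187 CPM in the G3BP2 inputs, 86.1 and 76.8 CPM in the DDX6 inputs and 368 and 295 CPM in the TIA1 inputs. Its fold change between the G3BP2 and DDX6 lines was 1.11 ± 0.19 (adjusted p = 0.00129), and the TIA1 line was the highest of the lines. DDIT4, another restraint on mTORC1, stood at 84.2 and 95.9 CPM against 34.7 and 16.4 CPM (1.83 ± 0.33, adjusted p = 0.00213). The DDX6 replicates of DDIT4 differed more than 2-fold from each other, and without DDX6 input replicate 2 the adjusted p was 0.114. STC2, a secreted glycoprotein, was 0.86 ± 0.19 (adjusted p = 0.0175), and GARS, the glycyl-tRNA synthetase, was 0.62 ± 0.15 (adjusted p = 0.0427). Both lost the call without any 1 of the 4 libraries, whereas CHAC1 and SESN2 kept it. ATF4 itself stood at 657 and 678 CPM against 638 and 484 CPM. Summed over the 32 genes, the level was 4760.0 and 4887 CPM in the G3BP2 inputs, 4077 and 3496 CPM in the DDX6 inputs, 7327 and 6190.3 CPM in the TIA1 inputs and 3652 and 3774 CPM in the unstressed DDX6 inputs.

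Further called genes known as ATF4 targets or partners, singled out after their values were seen, were CEBPG and SLC6A9. CEBPG, a bZIP protein that pairs with ATF4, stood at 108 and 105 CPM in the G3BP2 inputs and 63.9 and 60.1 CPM in the DDX6 inputs (0.78 ± 0.18, adjusted p = 0.0215). SLC6A9, a glycine transporter, stood at 35.1 and 34.3 CPM against 18.1 and 5.91 CPM (1.56 ± 0.33, adjusted p = 0.0106), with the DDX6 replicates far apart. Over the 4 omissions of a library the SLC6A9 fold change ran from 0.94 to 2.53. ATF3, a stress-induced bZIP repressor, stood at 115 and 101 CPM against 66.2 and 48.2 CPM (0.93 ± 0.21, adjusted p = 0.0176). SLC6A9 and ATF3 each kept the call under 1 of the 4 omissions, and CEBPG under none. In the DDX6 line ATF3 was higher with arsenite than without by 1.10 (adjusted p = 0.00991). For CEBPG that difference was 0.05 (adjusted p = 0.928), and the 2 genes' responses were not tested against each other.

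Promoters of these called genes are printed because ATF4 with its C/EBP partners binds a known composite site, whose letters can be looked for. RefSeq promoter windows (250 bases before to 50 after a start, GRCh38.p14) were found for all 8 of CHAC1, SESN2, DDIT4, STC2, GARS (GARS1 in RefSeq), ATF3, CEBPG and SLC6A9. The motif TGATGNAA was searched on both strands. It was present in 3.62% of all 35116 windows, and in 4 of the 11 windows of these 8 genes. SESN2, DDIT4, STC2 and SLC6A9 had no match. The 8 genes were chosen for known ties to ATF4, and uncalled genes of the list were not looked at separately. The 2 shares are therefore no test of these data. In CHAC1 it began 209 bases before the start, in ATF3 191, in CEBPG 42 and in GARS1 33. The matches in CHAC1 and GARS1 lie on the opposite strand. In the lines below each window is written 5′ to 3′ on the gene's strand, with the match in capitals. A match describes the letters and does not show binding.
CHAC1, chr15:40953221-40953520, plus strand: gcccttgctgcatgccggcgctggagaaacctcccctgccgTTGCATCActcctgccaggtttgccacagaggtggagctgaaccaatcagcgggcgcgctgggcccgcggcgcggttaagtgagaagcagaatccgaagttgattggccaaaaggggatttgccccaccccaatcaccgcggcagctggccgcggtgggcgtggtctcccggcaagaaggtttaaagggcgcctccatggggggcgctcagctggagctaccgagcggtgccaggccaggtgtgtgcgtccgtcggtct
CEBPG, chr19:33373863-33374162, plus strand: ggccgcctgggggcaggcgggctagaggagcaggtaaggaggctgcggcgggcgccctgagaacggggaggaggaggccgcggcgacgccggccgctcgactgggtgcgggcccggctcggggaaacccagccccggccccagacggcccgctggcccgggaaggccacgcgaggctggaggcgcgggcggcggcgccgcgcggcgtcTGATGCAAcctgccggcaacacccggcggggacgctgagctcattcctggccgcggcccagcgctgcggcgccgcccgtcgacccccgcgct
GARS1, chr7:30594628-30594927, plus strand: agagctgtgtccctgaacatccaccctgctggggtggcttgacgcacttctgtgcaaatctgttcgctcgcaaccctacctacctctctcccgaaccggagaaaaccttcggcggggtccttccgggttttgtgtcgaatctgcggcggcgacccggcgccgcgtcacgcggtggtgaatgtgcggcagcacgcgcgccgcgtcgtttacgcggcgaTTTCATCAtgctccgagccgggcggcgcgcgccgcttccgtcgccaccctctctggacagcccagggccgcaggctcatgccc
ATF3, chr1:212565157-212565456, plus strand: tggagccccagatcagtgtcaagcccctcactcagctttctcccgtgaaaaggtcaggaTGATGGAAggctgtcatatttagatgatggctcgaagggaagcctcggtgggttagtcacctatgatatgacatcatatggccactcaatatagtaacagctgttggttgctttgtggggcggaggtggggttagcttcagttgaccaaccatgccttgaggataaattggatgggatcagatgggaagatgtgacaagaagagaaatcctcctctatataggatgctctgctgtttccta

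Lists of other stress programmes held at most 2 called genes each. HMOX1, the heme oxygenase induced by NRF2, was the 1 called gene of 22 NRF2 and iron genes (4.55%, median −0.04), against 0.787% of all tested genes. It stood at 84.9 and 78.9 CPM in the G3BP2 inputs, 37.7 and 39.7 CPM in the DDX6 inputs and 16.0 and 17.4 CPM in the TIA1 inputs. The fold change between the G3BP2 and DDX6 lines was 1.08 ± 0.19 (adjusted p = 0.00150, and 0.0582 without G3BP2 input replicate 1), and the TIA1 line was the lowest. Of 39 immediate early genes, ATF3 was called higher and TRIB1, a pseudokinase, lower (−1.0 ± 0.22, adjusted p = 0.0175), with a median of −0.01. The 2 made up 5.13% of these 39 genes. No gene was called among 20 heat shock and chaperone genes, 19 of the endoplasmic reticulum, 19 of glycolysis, 12 hypoxia targets, 12 interferon-stimulated genes, 5 NF-kB targets or 3 metallothionein and zinc export genes. Among them OAS3, a sensor of double-stranded RNA, had the smallest p of the interferon genes, with 8.15 ± 1.60 CPM against 2.26 ± 0.0565 CPM (adjusted p = 0.0826).

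Most sterol and HOX genes lay above 0, and none was called. Of all 14360 tested genes, 7284 lay above 0. Of 24 cholesterol synthesis and uptake genes, 21 lay above 0, with a median of 0.35 and none called. IDI1, the isopentenyl diphosphate isomerase, had the smallest p, at 84.2 and 82.7 CPM against 40.3 and 60.1 CPM (adjusted p = 0.120). SREBF1, which encodes a transcription factor of lipid synthesis and is not on that list, was called. SREBF1 stood at 103 and 90.5 CPM against 58.0 and 41.0 CPM (0.97 ± 0.19, adjusted p = 0.00514). It was named after its value was seen, and it kept the call under 2 of the 4 omissions of a library. SREBF2, which is on the list, stood at 125 and 136 CPM against 133 and 120 CPM, which overlap. The summed level of the sterol list was 1597 and 1716 CPM in the G3BP2 inputs and 1087 and 1465 CPM in the DDX6 inputs, so the DDX6 replicates were farther apart than the G3BP2 replicates. Of 34 HOX genes, 29 lay above 0, with a median of 0.31. HOXA10 had the smallest p among them, at 43.4 and 50.4 CPM against 25.9 and 30.5 CPM (adjusted p = 0.0889). Of 48 histone genes, HIST1H1D (1.16 ± 0.22) and HIST1H3F (1.13 ± 0.24) were called higher, though near-identical histone genes can share reads. They made up 4.17% of the list, against 0.292% of all tested genes called higher. HIST1H1D kept the call under 2 of the 4 omissions of a library and HIST1H3F under none. Their fold changes ran from 0.96 to 1.39 (HIST1H1D) and from 0.98 to 1.27 (HIST1H3F).

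Several genes lower in the G3BP2 line stood at similar levels in the DDX6 and TIA1 lines. NPTX1, a secreted pentraxin of synapses, stood at 7.62 and 8.27 CPM in the G3BP2 inputs and 46.2 and 50.5 CPM in the DDX6 inputs. Its fold change was −2.61 ± 0.24 (adjusted p = 2.30e-08). The TIA1 inputs stood at 44.3 and 38.9 CPM and the unstressed DDX6 inputs at 48.9 and 46.7 CPM, so only the G3BP2 inputs were low among the 8. LRP2 (megalin), an endocytic receptor of the kidney tubule, followed the same order, with 12.3 and 12.8 CPM against 59.1 and 43.0 CPM (−2.02 ± 0.28, adjusted p = 4.92e-05). NELL2, a secreted neuronal protein, stood at 6.63 and 9.92 CPM against 36.2 and 27.6 CPM (−1.96 ± 0.26, adjusted p = 2.22e-05). CCND1, which encodes the G1 cyclin D1, stood at 5.64 and 6.61 CPM against 19.2 and 39.4 CPM (−2.27 ± 0.33, adjusted p = 1.28e-04), with the DDX6 replicates about 2-fold apart. These 4 genes were called in all omissions. CYFIP2, a subunit of the WAVE complex (−1.14 ± 0.18), also was. RGS16, a regulator of G-protein signalling, stood at 2.65 and 0.827 CPM against 9.24 and 16.7 CPM (−2.82 ± 0.54, adjusted p = 0.00347). EMX1, a homeobox factor of the forebrain (−2.08 ± 0.52), FLT1, a VEGF receptor (−1.66 ± 0.35), and ENSG00000279184, an identifier with no matched symbol (−2.36 ± 0.56), were called lower as well.

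Further genes were nearly silent in the G3BP2 line. TENM1, a teneurin adhesion protein, had 2 reads in the G3BP2 inputs and 93 in the DDX6 inputs, a depth-scaled ratio of 43.9 in favour of the DDX6 line (95% interval 11.8 to 368, counting error only). SLC16A14, of the monocarboxylate transporter family, had 1 read against 69, a ratio of 65.2 (11.3 to 2612). UNCX, a homeobox factor, had 3 reads against 44, a ratio of 13.9 (4.44 to 69.8). LINC00470 had none against 17 and was at least 5.35-fold lower, set against a floor of 3 reads over both G3BP2 inputs. Of these, TENM1 and SLC16A14 were called in all omissions. CA8, a carbonic anhydrase relative, was one of the called genes whose TIA1 level lay nearer to the G3BP2 line. It stood at 1.66 and 4.96 CPM in the G3BP2 inputs and 4.43 and 3.99 CPM in the TIA1 inputs, against 15.9 and 17.7 CPM in the DDX6 inputs (−2.40 ± 0.37, adjusted p = 3.20e-04).

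Most p53 targets lay below 0. Of 19 tested, 2 were called lower in the G3BP2 line (10.5%, against 0.494% of all tested genes) and none higher. Of the 19, 17 lay below 0, with a median of −0.38, against 7076 of all 14360 tested genes. As the list was chosen with earlier results known, these shares are a description, and p53 activity was not measured. AEN, a nuclease of p53-driven apoptosis, stood at 35.5 and 47.1 CPM against 76.5 and 69.6 CPM (−0.83 ± 0.18, adjusted p = 0.0117). ZMAT3, an RNA-binding protein, stood at 7.29 and 11.2 CPM against 25.5 and 25.9 CPM (−1.5 ± 0.33, adjusted p = 0.0148). PURPL, a long noncoding RNA induced by p53 and not on that list, stood at 2.65 and 4.13 CPM in the G3BP2 inputs and 53.6 and 15.1 CPM in the DDX6 inputs (−3.34 ± 0.58, adjusted p = 0.00129). The DDX6 replicates of PURPL were more than 3-fold apart, and without DDX6 input replicate 1 its adjusted p was 0.0888. Each of the 3 calls was lost under some omission: AEN had an adjusted p of 0.396 and ZMAT3 of 0.350 without G3BP2 input replicate 1. Of 2 textbook targets that did not pass the test, CDKN1A stood at 10.6 and 16.5 CPM against 50.6 and 16.4 CPM, which overlap, and MDM2 at 49.1 and 51.7 CPM against 80.9 and 85.7 CPM.

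All 13 mRNAs of the mitochondrial genome lay below 0, and 4 of them were called lower in the G3BP2 line. That was 30.8% of the list, against 0.494% of all tested genes called lower. Of all 14360 tested genes, 7076 lay below 0. The called genes, MT-ND1, MT-ND2, MT-ND3 and MT-ND5, encode subunits of respiratory complex I, and the median of the 13 was −0.75. MT-ND1 stood at 1145 and 972 CPM in the G3BP2 inputs and 2420.4 and 2334 CPM in the DDX6 inputs (−1.17 ± 0.21, adjusted p = 0.00205). The TIA1 inputs, at 3228 and 2955 CPM, and the unstressed DDX6 inputs, at 1886 and 2073 CPM, were also above the G3BP2 inputs. MT-ND2 was −1.15 ± 0.22, MT-ND3 −1.15 ± 0.23 and MT-ND5 −0.84 ± 0.20, with adjusted p of 0.00328, 0.00623 and 0.0324. The summed level of the 13 was 21344 and 20842 CPM in the G3BP2 inputs, 34393 and 31938 CPM in the DDX6 inputs and 36567 and 35761 CPM in the TIA1 inputs. The 2 mitochondrial rRNAs were not called (median −0.42), and MT-RNR1 stood at 99487 ± 5175 CPM against 138780.0 ± 4848 CPM. Of 8 mitochondrial tRNAs, 6 lay above 0, with a median of 0.33 in the inputs and −0.63 in the no-probe captures.

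Without G3BP2 input replicate 2 no mitochondrial mRNA kept the call (adjusted p = 0.116 for MT-ND1, 0.0803 for MT-ND2, 0.151 for MT-ND3 and 0.342 for MT-ND5), with like fold changes. MT-ND1 kept the call without any other 1 library, while MT-ND2, MT-ND3 and MT-ND5 each kept it under 1 of the 4 omissions. MTND2P28, a nuclear copy of MT-ND2 on chromosome 1, was called with a fold change of −1.0 ± 0.22 close to that of MT-ND2, and the 2 can share reads. Among nuclear genes of the same organelle, none of 76 genes of oxidative phosphorylation (median 0.06) and none of 74 mitochondrial ribosomal protein genes (median −0.04) was called. LRPPRC, a protein that binds and stabilises mitochondrial mRNAs, was called lower, at 165 and 138 CPM against 258 and 263 CPM (−0.78 ± 0.16, adjusted p = 0.0102). TOMM70, a receptor for protein import, was called lower as well (−0.65 ± 0.16, adjusted p = 0.0496). LRPPRC kept the call under 1 of the 4 omissions and TOMM70 under none. In the no-probe captures TOMM70 was not called (−0.41, adjusted p = 0.291). Both were named after their values were seen, and LRPPRC lies on chromosome 2, where the median over genes was −0.19. In bulk RNA, fewer mitochondrial transcripts per cell and more nuclear RNA per cell cannot be told apart.

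Among mRNAs of stress granule and P-body proteins, only those of the baits G3BP2 and DDX6 were called. Of 38 mRNAs of stress granule proteins, G3BP2 alone was called (2.63%, median −0.03). Of 46 mRNAs of P-body proteins and deadenylases, DDX6 alone was (2.17%, median −0.06), against 0.787% of all tested genes. None of 26 translation factor mRNAs was called (median −0.14). Among 82 ribosomal protein mRNAs, 74 lay below 0 with a median of −0.19, while 7076 of all 14360 tested genes lay below 0. RPL22 was the 1 called (1.22% of them), at 137 and 142 CPM against 232 and 253 CPM (−0.80 ± 0.17, adjusted p = 0.0137). Among 23 snoRNA host genes, 18 lay below 0 with a median of −0.25, and SNHG3 was the 1 called (4.35% of them). Its fold change was −0.84 ± 0.20 (adjusted p = 0.0277). RPL22 lost the call without 3 of the 4 libraries and SNHG3 without any 1. MTOR, the kinase of mTORC1 and mTORC2, was called lower, at 86.5 and 71.5 CPM against 128 and 129.6 CPM (−0.70 ± 0.16, adjusted p = 0.0244), and lost the call without any 1 library.

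Of 27 cell surface and matrix genes, LAMC1 and LAMA1, which encode laminin chains, were called lower (−0.69 and −0.92). They made up 7.41% of the list, against 0.494% of all tested genes called lower. Both lost the call without any 1 of the 4 libraries, with fold changes from −0.80 to −0.59 (LAMC1) and −1.22 to −0.66 (LAMA1). Of 376 zinc finger genes, ZNF700 and ZNF462 were called higher, which is 0.532% of them, against 0.292% of all tested genes. No member was called among 42 mitosis and centrosome genes (median 0.12), 22 cytoskeleton genes (median 0.16), 8 imprinted genes (median 0.14), 6 nuclear long noncoding RNAs (median 0.22), 4 clustered protocadherins, 78 snoRNAs and scaRNAs, 24 spliceosomal snRNAs, 7 other small RNAs or 8 mitochondrial tRNAs.

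The genes lower in the G3BP2 line were unevenly spread over the chromosomes. Chromosome 2 held 19 of the 71, chromosome 1 held 10 and chromosome 17 held 9, while no gene of chromosome 2 was called higher. This made 2% of the 949 tested genes of chromosome 2 and 1.02% of the 880 of chromosome 17, against 0.494% of all tested genes. For chromosome 1 it was 0.683% of 1464 tested genes, nearer to the share of all genes. The chromosome 2 genes included LRP2, SLC16A14, LRPPRC, GREB1 (−1.35), SPAST, the microtubule-severing enzyme spastin (−1.21), and KIF5C, a kinesin (−1.66). GTF3C3, a subunit of the RNA polymerase III factor TFIIIC, and PGAP1, an enzyme of GPI anchors, lie side by side there. GTF3C3 stood at 31.2 and 36.4 CPM against 85.4 and 71.5 CPM (−1.22 ± 0.20, adjusted p = 5.76e-04), and PGAP1 at 19 ± 3.48 against 44.2 ± 0.262 CPM (−1.22 ± 0.26, adjusted p = 0.0137). On chromosome 17 the called genes included NPTX1, GAA, the lysosomal alpha-glucosidase (−1.07 ± 0.20), LGALS3BP, a secreted glycoprotein (−1.22 ± 0.20), and DCAKD (−0.82 ± 0.20).

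The same lean was present in the bulk of the genes on chromosomes 2 and 17. Over 11105 genes with at least 5 CPM the median fold change was 0.0035, and over the 749 such genes of chromosome 2 it was −0.19, with 75.6% of them below 0. The chromosome 2 median ran from −0.23 to −0.14 over the 4 pairs of a G3BP2 and a DDX6 input. On chromosome 17 the median was −0.16 with 65.8% of genes below 0, and the other nuclear chromosomes lay between −0.04 and 0.09. Within a line the replicates differed on chromosome 2 by 0.03 (G3BP2) and −0.08 (DDX6), and on chromosome 17 by −0.0013 and −0.02. In the no-probe captures the median was −0.33 on chromosome 2 and −0.10 on chromosome 17, and in the labelled captures −0.25 and −0.05. These are medians over genes, given as a description, and neighbouring genes are not independent.

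**Figure D3:**
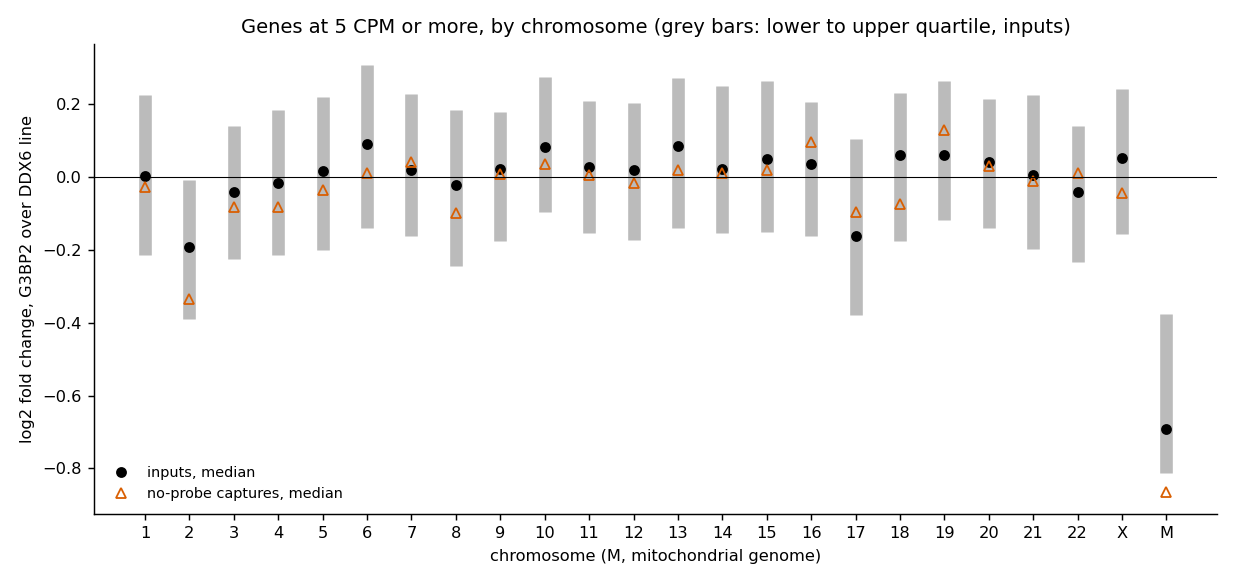
Fold change by chromosome (log2, G3BP2 line over DDX6 line) for genes with at least 5 CPM. Black points are medians in the inputs, grey bars span the range from the lower to the upper quartile and open triangles are medians in the no-probe captures, and chromosomes 2 and 17 and the mitochondrial genome (M) lie lowest.

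Smaller stretches, chosen after their values were seen, stood apart in the same way. The 379 genes of chromosome 17 from 40 Mb onward had a median of −0.26 (83.3% of the level in the DDX6 line), while the 186 genes below 20 Mb had a median of 0.12. The 142 genes of chromosome 1 below 20 Mb, among them MTOR and RPL22, had a median of −0.33 (79.8% of the level), and the 709 genes from 60 Mb onward a median of 0.08. On chromosome 6, the 139 genes from 120 Mb onward had a median of 0.25 (119% of the level) against 0.05 below 120 Mb. On chromosome 10 the 238 genes below 80 Mb had a median of 0.15. In the no-probe captures the same stretches had medians of −0.23 (chromosome 17 from 40 Mb), −0.19 (chromosome 1 below 20 Mb), 0.15 (chromosome 6 from 120 Mb) and 0.08 (chromosome 10 below 80 Mb). On chromosome 1 below 20 Mb the DDX6 no-probe captures were apart, at −0.13 and 0.10 from the mean of the 8 such captures, with the G3BP2 ones at −0.20 and −0.17.

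Single libraries showed which line stood apart. Each library's deviation is the median, over the genes of a stretch, of its log2 level against the mean of the 8 inputs. On chromosome 17 from 40 Mb it was −0.20 and −0.22 in the G3BP2 inputs, 0.07 and 0.03 in the DDX6 inputs and 0.08 and 0.11 in the TIA1 inputs. On chromosome 1 below 20 Mb it was −0.24 and −0.25 in the G3BP2 inputs and between 0.0096 and 0.14 in the 6 other inputs. On chromosome 6 from 120 Mb the G3BP2 inputs stood at 0.15 and 0.19 and the 6 others below 0. On all 3 stretches the G3BP2 inputs were therefore outside the range of the TIA1 inputs and of the DDX6 inputs with and without arsenite. The stretches were chosen after their fold changes were seen, so the separation from the arsenite DDX6 inputs follows from that choice. DNA copy number was not measured, and its part in these differences was not tested.

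**Figure D4:**
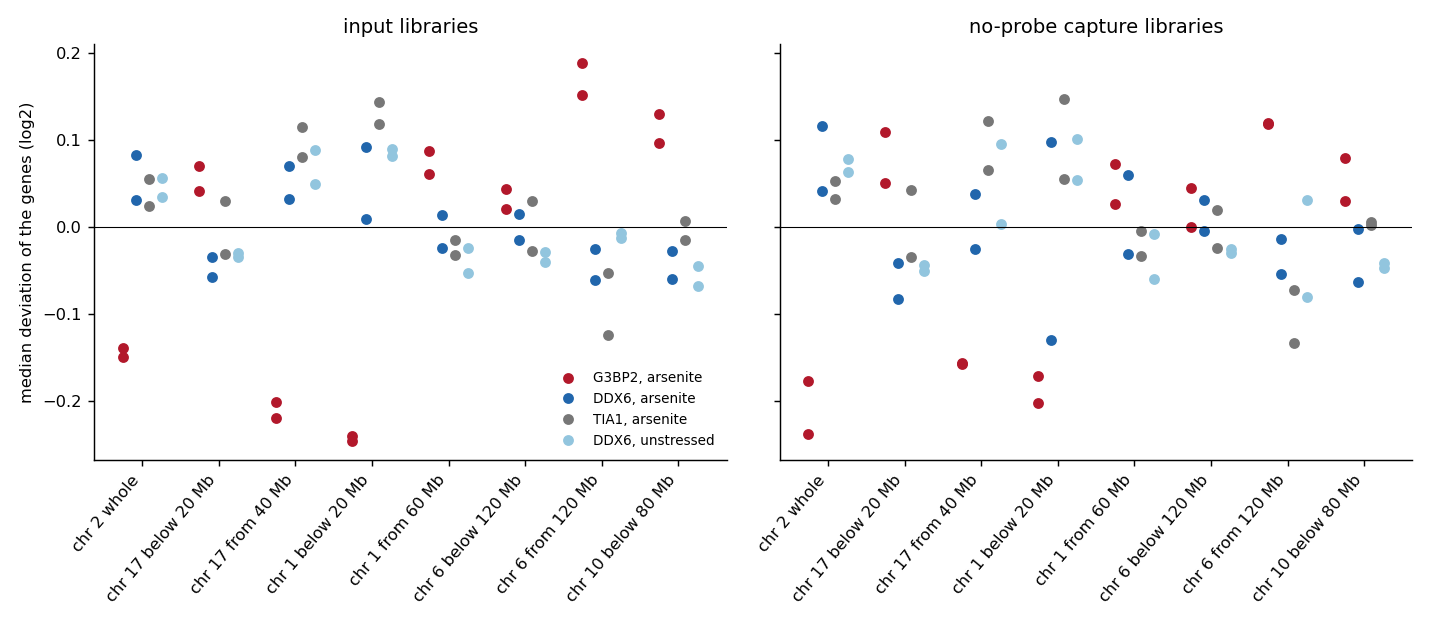
Median deviation (log2) of the genes of 8 stretches of chromosome in each library, from the mean of the 8 inputs (left) or of the 8 no-probe captures (right). Each point is 1 library, coloured by line and treatment, and both G3BP2 libraries lie below the other inputs on chromosome 2, chromosome 17 from 40 Mb and chromosome 1 below 20 Mb.

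In windows of 20 Mb with at least 20 genes, 12 of 152 had a median of −0.2 or lower, of which 7 were on chromosome 2 and 3 on chromosome 17, and 2 had a median of 0.2 or higher. Between replicates of the G3BP2 line 2 windows differed by over 0.2, and between those of the DDX6 line 1 window. Of the 12 low windows, 11 were below 0 in the no-probe captures and 10 in the labelled captures. Many windows with input medians near 0 were below 0 there too. The share over all 152 windows was not worked out, so these counts alone do not show agreement. Across the 152 windows the medians of inputs and no-probe captures had a Pearson r of 0.708 and a Spearman rho of 0.575. Without chromosomes 2 and 17 Pearson's r was 0.45 over 134 windows. The windows share the cell lines, and libraries of a kind share their scaling, so these correlations are descriptions.

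The TIA1 line served as a further reference for the direction of the called genes. Its mean level was nearer to that of the DDX6 line in 65 of the 71 genes lower in the G3BP2 line (91.5%) and in 23 of the 42 higher ones (54.8%), against 56.9% of all tested genes. Between the G3BP2 and TIA1 inputs 594 genes were called (4.14%), and between the DDX6 and TIA1 inputs 126 (0.877%). These contrasts share libraries with the one described here, so only the values of single genes are set side by side. NPTX1 was −2.39 in G3BP2 over TIA1 and 0.22 in DDX6 over TIA1. LRP2 was −1.62 and 0.40, and MT-ND1 −1.55 and −0.38. For CHAC1 the order was reversed, with −0.20 in G3BP2 over TIA1 and −2.98 in DDX6 over TIA1. SESN2 was −0.91 and −2.03, so that the G3BP2 line lay between the others. FIRRE, a long noncoding RNA of the X chromosome, stood at 9.61 and 12 CPM in the G3BP2 inputs and 8.87 and 10.5 CPM in the TIA1 inputs, against 23.7 and 22.3 CPM in the DDX6 inputs.

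Captures made without the probe gave a second measurement of the same lines in separate libraries, since they hold RNA that binds streptavidin beads without label. In these, 125 of 14360 genes were called between the G3BP2 and DDX6 lines (0.87%), 44 higher (0.306%) and 81 lower (0.564%). Of the 113 genes called in the inputs, 109 had the same sign there, and 40 were called with the same sign, which is 35.4% of the input calls and 32% of the no-probe calls. None was called in the opposite direction. The share of all tested genes with the same sign was not worked out, so the 109 have no background beside them. ANGPT1 was 5.73 in the no-probe captures (adjusted p = 2.09e-04) and CHAC1 2.62 (0.00329). NPTX1 was −2.42 (3.58e-06), SLC16A14 −3.75 (0.00444) and MT-ND1 −1.41 (4.44e-04).

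Some genes called in the inputs were not called in these captures. DDIT4 was 0.76 there (adjusted p = 0.336), SESN2 0.74 (0.0687) and PHACTR3, with the opposite sign, −0.55 (0.734). Of the other ATF4-related genes, ATF3 was 0.18 (0.775), CEBPG 0.14 (0.794), SLC6A9 0.34 (0.719), STC2 0.35 (0.477) and GARS 0.43 (0.220). The ATF4 list had a median of 0.15 there, with CHAC1 its 1 called member. TENM1 was −1.67 (0.170), UNCX −2.69 (0.114) and LINC00470 −0.61 (0.815). The median of the 13 mitochondrial mRNAs was −1.07, with 9 of them called lower. OAS3, not called in the inputs, was 3.79 (0.00145). The no-probe count also hung on single libraries. G3BP2 no-probe replicate 2 was the shallowest library of the series, with 1129510 counts, and without it 29 genes were called. Without G3BP2 no-probe replicate 1 the count was 59, and without DDX6 no-probe replicate 2 it was 410. In the labelled captures, where proximity to different baits and differences between lines cannot be told apart, 1483 genes were called (10.3%). There 107 of the 113 had the same sign as in the inputs, again without a share over all genes.

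**Figure D5:**
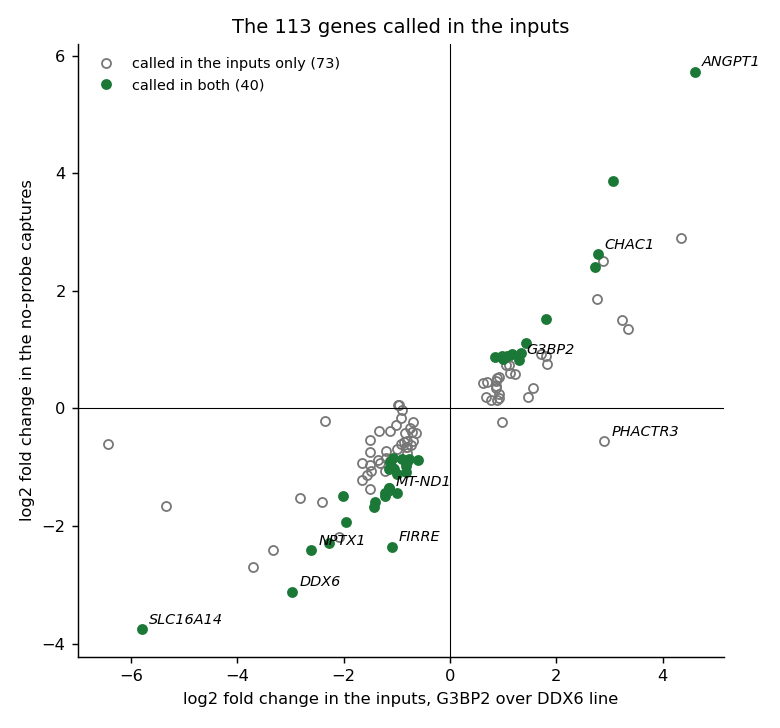
Fold change (log2, G3BP2 line over DDX6 line) of the 113 genes called in the inputs, with the inputs on the horizontal axis and the no-probe captures on the vertical axis. Filled points mark the 40 genes called in both kinds of library, open points the rest, and 109 of the 113 lie in the quadrants where the signs are the same.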

How the data were processed

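The deposited table gives whole-number counts per Ensembl gene for 24 libraries. Per the submitters' processing notes, the authors used cutadapt 1.18, FastQC 0.11.8, HISAT2 2.1.0, SAMtools and HTSeq 0.7.2 to make these counts, and the file headers name Ensembl release 87. The strand setting and the handling of multi-mapping reads are not given in the sources used here, and the kit named in the labels (NEBNext Ultra II RNA) keeps no strand. Groups came from the labels, whose treatment protocol spells G3BP2-miniSOG as G2BP2-miniSOG. Of 57992 genes, 57388 matched GENCODE release 29, which gave symbols and positions, and 39646 had a count.

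The fits were run in edgeR 4.0.16 under R 4.3.3. In them filterByExpr kept 14360 genes, TMM scaled the libraries, and 1 quasi-likelihood model with 12 group coefficients was fitted to all 24 libraries (12 residual degrees of freedom, common biological coefficient of variation 12.9%). Contrasts were tested two-sided with Benjamini-Hochberg adjustment over all tested genes at 0.05. Tested on simulated data for this contrast (14069 genes), the fit recovered 84% of genes raised 2-fold, 98% raised 4-fold, 62% lowered to 0.5 and 94% lowered to 0.25, with 6 false calls among 175.

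The members and lists were chosen with earlier results of these data known. Named genes were the baits and their relatives, the 15 called genes of largest fold change in each direction whose libraries did not overlap, up to 4 called members per list and direction, called neighbours within 500 kb, and the member of smallest p where none was called. Other called genes were named after their values were seen. Intervals of read ratios are exact binomial at 95% and cover counting error only, as reads carry no molecular identifiers. Alternatives were total-count, RLE and nuclear-gene scaling, no filter, DESeq2 1.42.0, fits of 8 or 4 inputs, a replicate block, a fold threshold and leaving out each library. Some genes that these rules name are not reported here.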

Additional observations from a re-analysis of the deposited data

How the results depend on the processing

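The 113 genes called in the inputs became 75 (49 higher, 26 lower) with total counts, 255 (93 higher, 162 lower) in a fit of the 8 inputs alone, 85 in a fit of the 4 inputs, 126 with DESeq2, 119 with RLE scaling, 122 with scaling over nuclear protein-coding genes, 150 without a filter and 7 (3 higher, 4 lower) beyond a log2 fold change of 1. Leaving out 1 library gave 36 to 82. Of the 113 genes, 67 were kept with total counts, 111 with the 8 inputs, 68 with the 4 and 103 with DESeq2. The 125 no-probe calls became 402 (376 higher, 26 lower) with total counts, 246 without a filter, 157 with DESeq2 and 29 to 410 without 1 library.

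With the replicate number as a block, 146 input genes (52 higher, 94 lower) and 149 no-probe genes were called, and all 113 were kept. Deviations of same-numbered inputs correlated at 0.0118, so the numbers were not taken as pairs.

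None of the 113 called genes changed sign where an alternative gave a value. Among named genes not called, TIA1 was −0.0084 without a filter and DDX39A 0.0644 with total counts. Over the 4 omissions of a library, G3BP1 ran from −0.5639 to 0.0876, TIA1 from −0.0997 to 0.1321, TIAL1 from −0.0724 to 0.2954, TNFAIP3 from −0.0776 to 0.8348, IGF2 from −2.9196 to 4.0828 and KCNQ1OT1 from −0.0083 to 0.4492. Relative to all genes, the median of chromosome 17 (−0.17) ran from −0.1654 to −0.1275 and that of chromosome 1 (1e-04) from −0.0155 to 0.0237. The cause of these changes was not tested. Depth limits genes of a few CPM, whose calls rest on few reads.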
